A study of Mus musculus with 12 samples.

Results

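The comparison described here set splenic follicular (FO) B cells stimulated with CpG plus IFNα against unstimulated FO B cells. Its members were the 3 CpG + IFNα and the 3 unstimulated samples, as the sample labels name them, which is 6 of the 12 bulk RNA-seq samples of the series, and every gene of the count table entered the comparison. The series asked what IFNα adds to TLR9-stimulated FO B cells, and its other 6 samples were FO B cells given CpG alone or IFNα alone. All cells came from C57BL6 mice of 10 weeks of age. The methods give flow sorting on surface markers that include B220, CD93, CD21 and CD23 as the source of the FO B cells. The 3 stimulated groups were collected 12 h after stimulation. No time is given for the unstimulated cells, and whether they were cultured is not given either, so stimulation and culture cannot be told apart in the comparisons against them. Nothing in the labels says that the 3 samples of a group came from separate mice or cultures, so the p-values measure the spread between these samples, which may be technical.

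CpG oligonucleotides are ligands of TLR9, an endosomal receptor for DNA with unmethylated CpG dinucleotides, which signals through MyD88 to NF-kB and mitogen-activated kinases. IFNα is a type I interferon, which binds a receptor made of IFNAR1 and IFNAR2 and acts through Janus kinases and STAT proteins on genes that carry interferon-stimulated response elements (ISREs). FO B cells are resting, recirculating B cells of the follicles, and they are known to leave the resting state, grow and divide after TLR9 ligation.

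The 6 libraries were shallow, with 922450 to 1103064 counts for the unstimulated samples and 1884673 to 2923865 for the CpG + IFNα samples, and 13436 to 14974 genes had at least 1 count in a library of either group. Levels are given as normalized CPM, which is counts scaled to a common library size after TMM normalization. The labelled cell type was checked against markers. The 7 B cell markers were all tested and summed to 16520, 18750 and 17600 normalized CPM in unstimulated replicates 1 to 3 and to 5559, 5710 and 5711 with CpG + IFNα, where all 7 were lower. The 6 follicular B cell markers were also all lower, at 5399, 6178 and 5444 against 1070, 988.1 and 957.4. Of 6 tested markers of marginal zone B cells 2 were lower (summed levels 728.8 to 961.6 against 540.1 to 591), and of 2 of transitional B cells 1 was lower (204.3 to 220.6 against 15.8 to 31.7). Over all genes tested, 25.6% were lower by the criteria given below. Of 9 T cell markers in the table, 8 were too low to be tested, with Cd3g and Cd8a without a count in any sample, and the tested one, Lck, the gene of a T cell receptor kinase, fell from 27.3, 40.6 and 39.7 to 3.27, 3.45 and 5.65 normalized CPM. None of the 5 NK cell markers and none of the 10 myeloid markers in the table was tested. Lyz2, a marker of myeloid cells, had 4, 9 and 3 counts in the unstimulated samples and 0 in every CpG + IFNα sample. Of 7 markers of plasmacytoid dendritic cells, 4 were tested, and their sum was 380.4, 338 and 413 normalized CPM in the unstimulated and 1214, 1259 and 1364 in the CpG + IFNα samples. Most of that sum in the CpG + IFNα samples was Bst2, which is also on the interferon list, Cox6a2 rose from at most 1 count in a library to 19.1, 15.5 and 20.6 normalized CPM, Pacsin1 fell and Tcf4 was not called, while Siglech, a defining marker, had 0 counts in every sample. Erythroid markers summed to 344.9, 156.1 and 57.4 normalized CPM in the unstimulated samples and to 72.0, 21.7 and 5.65 in the CpG + IFNα samples. The part of these cell types in the results was not tested. Nuclear rRNA genes held 1.08%, 2.88% and 0.519% of the counts in CpG + IFNα replicates 1 to 3 and 0.772%, 0.771% and 0.891% in the unstimulated samples. Without CpG + IFNα replicate 2, which had the largest share of nuclear rRNA among these 6 libraries, 1986 genes were higher and 2579 lower by the criteria used below, against 1916 and 2413 with it.

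Promoter sequences are shown first, since interferon-induced, cytokine and growth genes are described in the results. Textbook motifs of ISREs, NF-kB and Myc can be looked up in them by their letters. They come from RefSeq (GRCm38.p6) and cover 250 bases before to 50 bases after each gene's start, and 7234 of the 9431 genes tested were matched by symbol. The ISRE core was taken as GAAA, any 2 bases and GAAA, on either strand. In the windows below, capitals mark these letters or their reverse complement, and neighbouring matches run into each other in Isg15, Bst2 and Socs1. The windows are those of Isg15 (chr4:156200855-156200904, minus strand), Bst2 (chr8:71537567-71537616, minus strand), Ifit1 (chr19:34640784-34640833, plus strand), Oas3 (chr5:120777705-120777754, minus strand), Socs1 (chr16:10785584-10785633, minus strand) and Cxcl10 (chr5:92349073-92349122, minus strand). All 6 genes were higher with CpG + IFNα than without stimulation.
Isg15: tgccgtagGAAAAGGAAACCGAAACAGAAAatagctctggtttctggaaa
Bst2: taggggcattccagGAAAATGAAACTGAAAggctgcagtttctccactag
Ifit1: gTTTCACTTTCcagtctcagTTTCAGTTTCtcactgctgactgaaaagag
Oas3: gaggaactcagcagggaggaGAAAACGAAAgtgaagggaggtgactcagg
Socs1: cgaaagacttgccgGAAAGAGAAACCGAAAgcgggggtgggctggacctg
Cxcl10: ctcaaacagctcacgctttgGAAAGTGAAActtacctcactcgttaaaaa

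An NF-kB-like motif was taken as GGGA, any 2 bases and TTCC, or GGGG, any base and TTTCC, on either strand, and it is shown in capitals for 3 cytokine genes. Cxcl10 (chr5:92349019-92349068, minus strand) and Il6 (chr5:30013050-30013099, plus strand) rose with CpG + IFNα. Ltb (chr17:35194400-35194449, plus strand) fell. The Cxcl10 promoter thus held both sets of letters, which did not overlap.
Cxcl10 kB: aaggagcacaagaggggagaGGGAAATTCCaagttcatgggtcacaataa
Il6: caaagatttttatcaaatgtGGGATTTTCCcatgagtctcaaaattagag
Ltb: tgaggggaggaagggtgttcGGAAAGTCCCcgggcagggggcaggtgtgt

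The E-box CACGTG, which proteins of the Myc family bind, is shown in capitals for 4 growth genes that rose. They are Hspd1 (chr1:55088298-55088343, minus strand), which encodes the mitochondrial chaperonin HSP60, Nop2 (chr6:125131803-125131848, plus strand), which encodes an rRNA methyltransferase, Eif4e (chr3:138527184-138527229, plus strand), which encodes the cap-binding initiation factor, and Cdk4 (chr10:127063504-127063534, plus strand), which encodes a G1 kinase.
Hspd1: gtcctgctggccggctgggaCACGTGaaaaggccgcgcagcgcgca
Nop2: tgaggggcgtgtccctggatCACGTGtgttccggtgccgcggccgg
Eif4e: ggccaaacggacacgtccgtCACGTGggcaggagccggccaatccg
Cdk4: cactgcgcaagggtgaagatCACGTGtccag

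The ISRE core was present in 78 of the 1490 promoters of genes that were higher than in unstimulated cells (5.24%), in 64 of 1791 of those that were lower (3.57%), in 293 of 7234 of all tested genes (4.05%) and in 3.99% of all 27025 promoters of the same length. In the list of interferon-induced antiviral genes, 22 of 37 promoters held it (59.5%). Of genes higher with CpG + IFNα than with CpG alone, 63 of 204 promoters held it (30.9%). These genes included 47 of the 50 tested antiviral genes. Their promoters held the NF-kB-like letters in 15 cases (7.35%) and CACGTG in 10 (4.90%). The NF-kB-like letters were in 2.35% of the promoters of higher genes, 2.23% of lower genes, 2.36% of tested genes and 2.08% of all promoters, and in 5 of the 13 promoters of the cytokine and chemokine list (38.5%). CACGTG was in 15.8% of the promoters of higher genes, 12.3% of lower genes, 12.95% of tested genes and 8.09% of all promoters, and it was found in lists of both directions. Of lists that mostly rose, it was in 9 of 30 promoters of initiation factor genes (30%) and 4 of 15 of tRNA synthetase genes (26.7%). It was also in 12 of 60 of ribosome biogenesis genes (20%), 2 of 17 of chaperonin genes (11.8%) and 2 of 27 of proteasome genes (7.41%). Of lists with more lower than higher genes, it was in 11 of 30 promoters of lysosome and autophagy genes (36.7%) and 6 of 21 of immediate-early genes (28.6%). In 2 other such lists it was in 2 of 25 promoters of quiescence genes (8%) and 0 of 8 of MHC class II genes. A match says only that these letters are in the window.

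CpG + IFNα changed a large part of the measured transcriptome. Of 22561 genes in the table, 9431 had enough counts to be tested, and a differentially expressed gene (DEG) was one with an adjusted p below 0.1 by edgeR's quasi-likelihood test and a log2 fold change beyond 1 in either direction. By this rule 1916 genes were higher (20.3% of those tested) and 2413 were lower (25.6%), together 4329 (45.9%). With no limit on the fold, 7203 genes (76.4%) passed the adjusted p. All 3 CpG + IFNα samples lay above all 3 unstimulated samples for 3448 genes (36.6%) and below them for 3519 (37.3%).

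The lower genes moved further than the higher genes. The median log2 fold change was 1.64 over the higher DEGs and -2.02 over the lower DEGs, while over all genes tested it was -0.01, with quartiles of -1.03 and 0.82. A change of over 8-fold was seen for 154 higher and 656 lower DEGs, and of over 32-fold for 23 higher and 162 lower DEGs. Protein-coding genes made up 1787 of the higher and 2163 of the lower DEGs. In these bulk samples fewer cells of a type and less RNA per cell cannot be told apart. Levels are scaled to a common library size, so a change in the total RNA of a cell cannot be told apart from these either.

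**Figure D1:**
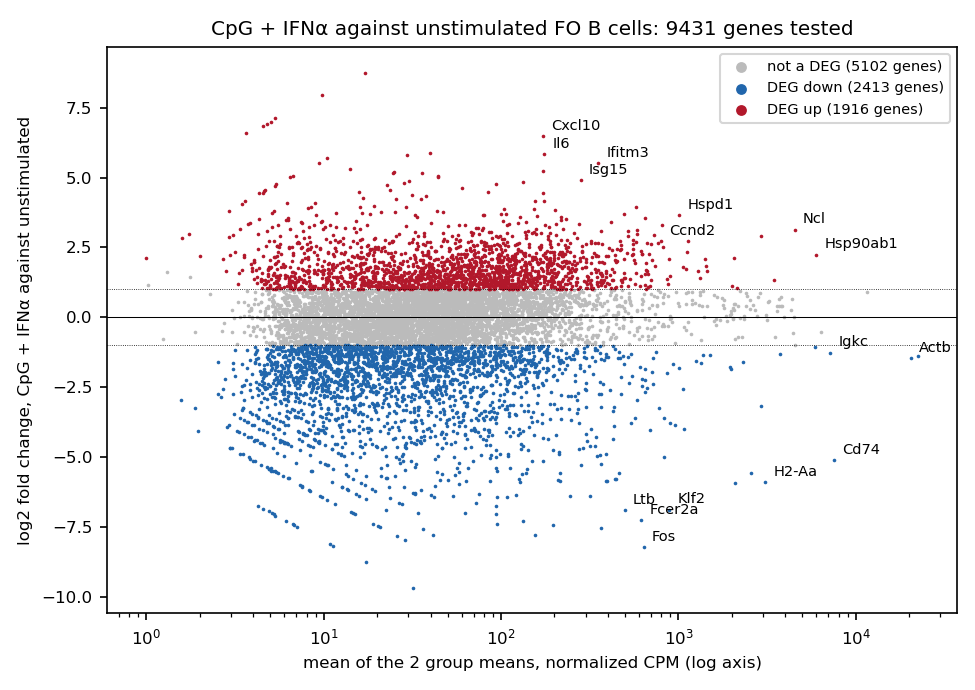
Log2 fold change of CpG + IFNα against unstimulated cells on the y axis, plotted against mean normalized CPM on a log x axis, with 1 point for each of the 9431 genes tested. Coloured points are the 1916 higher and 2413 lower DEGs, and the lower DEGs reach further from 0 than the higher DEGs.

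Interferon-induced antiviral genes rose as a group, although not all of them did. Of the 50 tested genes on this list, 35 were higher and 2 were lower, beside 20.3% and 25.6% of all genes tested, with a median log2 fold change of 2.23 beside -0.01 over all genes. All 3 CpG + IFNα samples lay above all unstimulated samples for 41 of the 50 and below them for 3, beside 36.6% and 37.3% of all genes. The list's genes made up 0.557%, 0.602% and 0.625% of the counts in the unstimulated samples and 1.08%, 1.08% and 1.17% in the CpG + IFNα samples. An exact two-sided permutation test of this share gave p = 0.1, the smallest that 3 against 3 samples allow.

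Isg15, a ubiquitin-like modifier and a classic interferon-stimulated gene (chr4:156199424-156200818), stood at 20.02, 8.56 and 23.8 normalized CPM in unstimulated replicates 1 to 3 and at 578, 483 and 574 in the CpG + IFNα replicates. The groups did not overlap, and the log2 fold change was 4.92 (SE 0.20, adjusted p = 2.38e-20). Rsad2, which encodes the antiviral enzyme viperin, read 20.02, 13.9 and 24.7 without stimulation and 187, 204 and 215 with CpG + IFNα, again with no overlap (log2 fold change 3.34, SE 0.17). Bst2, which encodes tetherin, a membrane protein that holds back budding virus, rose from 69.2 ± 6.58 (SD, n = 3) to 1080 ± 78.96 normalized CPM (log2 fold change 3.96, adjusted p = 1.12e-20).

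Ifitm3, which encodes a protein that blocks entry of enveloped viruses, rose from 14.7 ± 6.67 to 687 ± 73.6 normalized CPM (log2 fold change 5.53, SE 0.22). Usp18, which encodes the protease that removes ISG15 and dampens interferon signalling, rose from 17.8 ± 8.11 to 329.7 ± 31.6 (log2 fold change 4.17). Ifih1, the gene of the RNA sensor MDA5, rose from 2.53 ± 2.75 to 48.4 ± 12.5 (log2 fold change 4.25), while Ddx58, the gene of the related sensor RIG-I, read 95.5 ± 12.9 and 96.3 ± 2.96, with a log2 fold change of 0.01 (adjusted p = 0.93). Mx1, Oas3 and Oasl1, all antiviral effector genes, rose by log2 fold changes of 3.31, 3.64 and 3.5. The 2 genes of the list that fell were Ly6e, from 3493 ± 132 to 1153 ± 55.2 normalized CPM (log2 fold change -1.6), and Gbp3, a guanylate-binding protein gene, from 51.5 ± 7.59 to 23.6 ± 1.03 (-1.12), where the call was lost at -0.998 without unstimulated replicate 2.

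The same genes read differently in the single stimulations, which are given side by side because the comparisons share the CpG + IFNα samples. Against CpG alone, 278 of all tested genes were higher with CpG + IFNα (2.95%) and 190 lower (2.01%). The lower count depended on the threshold, with 177 higher and 18 lower when tested against a change of 2-fold, and 150 and 15 with a log2 limit of 2. At the limit of 1, 47 of the 50 antiviral genes were among the higher and 0 among the lower, with a median log2 difference of 3.72. Against IFNα alone, 1767 of all tested genes were higher (18.7%) and 2408 lower (25.5%), and 0 of the 50 antiviral genes were higher and 36 lower, with a median of -1.56. The list's share of all counts averaged 0.203% with CpG, 1.11% with CpG + IFNα and 3.001% with IFNα. Most of the list was thus higher with CpG + IFNα than without stimulation or with CpG alone, and most of it was lower than with IFNα alone.

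Members of the list differed in where they stood between the stimulations. The mean of Isg15 was 7.59 normalized CPM with CpG, 603 with IFNα and 545 with CpG + IFNα, so that CpG + IFNα and IFNα alone differed by -0.14 on the log2 scale (adjusted p = 0.329). Ifit3, an interferon-induced protein with tetratricopeptide repeats, averaged 1376 with IFNα and 101 with CpG + IFNα, a log2 difference of -3.76 (adjusted p = 2.53e-21), and 12.6 without stimulation. Ifit1bl1 of the same family averaged 801 with IFNα, 12.7 ± 2.02 with CpG + IFNα and 16.02 ± 9.82 without stimulation. The Ifit genes are a family of near copies, and reads may have been split between them.

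**Figure D2:**
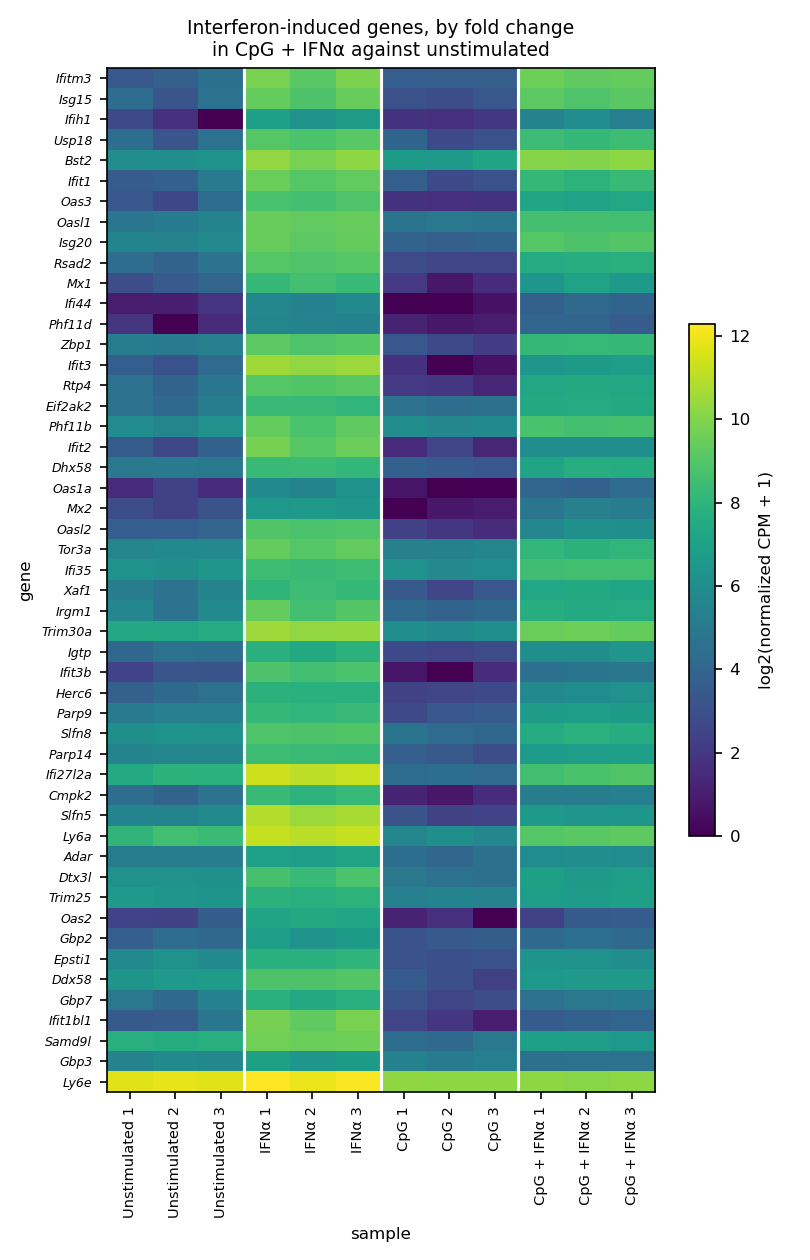
Heat map of log2(normalized CPM + 1) for the 50 interferon-induced antiviral genes, 1 row for each gene in order of fold change and 1 column for each of the 12 samples. For most genes the CpG + IFNα columns are above the unstimulated and CpG columns and below the IFNα columns, as for Ifit3 with a mean of 101 normalized CPM with CpG + IFNα and 1376 with IFNα.

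Of 18 tested genes for interferon receptors and signalling, 3 were higher and 7 lower (median log2 fold change -0.30), beside 20.3% and 25.6% of all genes tested, where lower calls were also the more frequent. Ifnar1, which encodes a chain of the type I interferon receptor, fell from 80.99, 51.3 and 60.9 to 15.8, 18.6 and 15.9 normalized CPM (log2 fold change -1.93, adjusted p = 6.25e-09), and its partner Ifnar2 read 25.3 ± 1.32 and 23.3 ± 3.55 (-0.11, adjusted p = 0.624). The Janus kinase genes Tyk2 and Jak1 fell, with log2 fold changes of -2.06 and -1.44. The 3 that rose were Irf7, the gene of an interferon-inducible regulatory factor (from 61.4 ± 12.96 to 315 ± 37.1, log2 fold change 2.35), Socs1, the gene of an inhibitor of Janus kinases (1.83), and Ptpn2, which encodes a phosphatase of the same pathway (1.22). Irf9, a subunit of the factor that binds ISREs, passed the adjusted p but not the fold limit (0.87, adjusted p = 7.52e-07). Against CpG alone 6 of the 18 were higher and 0 lower, beside 2.95% and 2.01% of all genes.

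Of the 27 tested genes of the Toll-like receptor and MyD88 pathway, 3 were higher and 10 lower (median log2 fold change -0.48), again beside 20.3% and 25.6% of all genes tested. Tlr9, the receptor of CpG, stood at 209, 226 and 226 normalized CPM in the unstimulated samples and 247, 263 and 263 in the CpG + IFNα samples, a log2 fold change of 0.23 that did not reach the fold limit (adjusted p = 0.0925, edgeR). The study's methods say that the Tlr9 reference was lengthened at its end to take in more reads. Myd88, its adaptor, read 33.4 ± 8.51 and 36.7 ± 2.61 (log2 fold change 0.16). Tlr1, a receptor for lipopeptides, and Cd180, a receptor related to TLR4, fell from 93.3 ± 9.93 to 7.82 ± 3.17 and from 285 ± 28.99 to 33.9 ± 8.35. Slc15a4, which encodes an endolysosomal transporter needed for TLR7 and TLR9 signalling, fell, with a log2 fold change of -2.03. Tlr7 read 23.6 ± 5.66 and 43.5 ± 3.69, and averaged 5.04 with CpG and 128 with IFNα.

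Of 20 tested genes of the NF-kB family and its regulators, 4 were higher and 6 lower (median log2 fold change -0.19), which is near the shares over all genes tested (20.3% and 25.6%). Nfkbiz, which encodes the nuclear inhibitor-like protein IkBζ, a co-factor for secondary response genes such as Il6, stood at 115, 88.8 and 122.7 normalized CPM without stimulation and 930, 1040 and 835 with CpG + IFNα, with no overlap (log2 fold change 3.1, adjusted p = 1.33e-19). It averaged 1049 with CpG and 53.7 with IFNα. Traf1 rose from 47.2 ± 6.47 to 363 ± 5.53, Nfkbib by a log2 fold change of 1.47 and Nfkb1, the gene of p105 and p50, by 1.09. The subunit genes Rel and Relb fell (-1.61 and -1.09), as did Map3k14, the gene of the kinase NIK (-2.61), and Ikbkb (-1.54). Relb lost its call without unstimulated replicate 1 (-0.94). Nfkbia, the classic inhibitor, read 561 ± 155 and 684 ± 32.3 (0.28). Against CpG alone 0 of the 20 differed by the DEG rule in either direction, which is near the 2.95% higher and 2.01% lower over all genes.

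Of 15 tested cytokine and chemokine genes, 9 were higher and 5 lower, beside 20.3% and 25.6% of all genes tested, and of these 14 the groups overlapped in Il10 alone, while groups that did not overlap were seen for 36.6% of all genes upward and 37.3% downward. The median log2 fold change of 1.62 was 2.38 without unstimulated replicate 3, 2.14 without replicate 1 and 1.29 without replicate 2. Cxcl10, which encodes the interferon-inducible ligand of CXCR3 (chr5:92346638-92348889), rose from 2.73, 1.07 and 7.06 to 319, 384 and 319.7 normalized CPM (log2 fold change 6.47, SE 0.25, adjusted p = 3.11e-21), and had the smallest p of the higher protein-coding genes whose groups did not overlap. Il6, the gene of interleukin-6 (chr5:30013114-30019981), rose from 5.46, 3.21 and 8.82 to 397, 306 and 331 (log2 fold change 5.82, SE 0.25).

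The single stimulations differed for these 2 genes. Cxcl10 averaged 2.23 normalized CPM with CpG and 59.5 with IFNα beside 341 with CpG + IFNα (log2 difference 2.5 from IFNα alone, adjusted p = 1.96e-16). Il6 averaged 3.105 with IFNα and 147 with CpG beside 345 with CpG + IFNα (log2 difference 1.22 from CpG alone, adjusted p = 2.29e-08). Cxcl10 and Il6 were therefore above both single stimulations.

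Ccl3 and Ccl4, inflammatory chemokines, rose from 14.6 ± 11.6 to 329 ± 42.8 and from 12.9 ± 12.4 to 194 ± 8.02 normalized CPM. Tnf rose by a log2 fold change of 2.7, Csf1, the macrophage growth factor gene, by 2.15, Mif by 2.46 and Il10 by 1.62 from a low level of 3.02 ± 2.76. Ltb, which encodes lymphotoxin β, a signal from B cells for follicle structure, fell from 910, 951 and 1102 to 7.64, 5.87 and 12.3 (log2 fold change -6.88, SE 0.19, adjusted p = 1.24e-24). Il16 fell from 237 ± 9.11 to 14.6 ± 1.69, and Tgfb1 by a log2 fold change of -1.92. Of the type I interferon genes only Ifna4 and Ifnk were in the table, without a count in any of the 6 samples, and neither was tested.

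**Figure D3:**
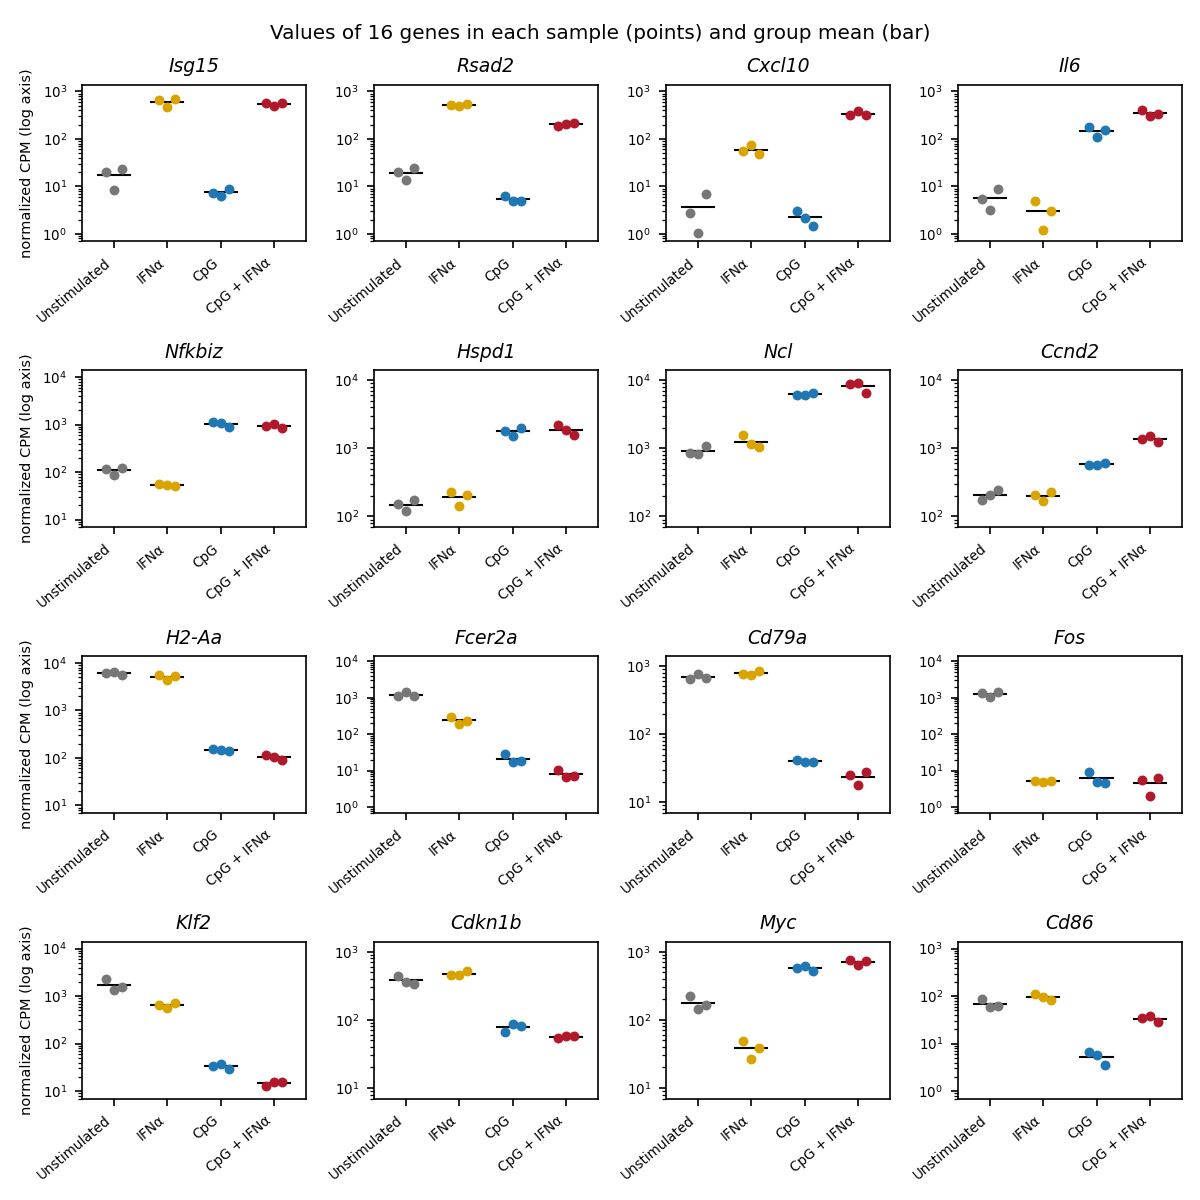
Normalized CPM (log scale) of 16 genes in each sample of the 4 groups, 1 panel for each gene and 1 point for each sample. In every panel the 3 CpG + IFNα points are separate from the 3 unstimulated points, for example Il6 at 397, 306 and 331 against 5.46, 3.21 and 8.82, while Fos is as low with IFNα alone and CpG alone as with both.

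Immediate-early genes, which are transcribed within minutes of a signal, were mostly lower at 12 h. Of 27 tested genes, 24 were lower and 3 higher, beside 25.6% and 20.3% of all genes tested (median log2 fold change -3.64 beside -0.01 over all genes). The fall was shared by the single stimulations. Against unstimulated cells, 24 of the 27 were lower with CpG alone (median -3.50) and 23 with IFNα alone (median -2.28). Over all 9431 genes tested, 2405 were lower with CpG alone and 384 with IFNα alone. Fos, an AP-1 subunit (chr12:85473890-85477273), read 1326, 1065 and 1415 normalized CPM in the unstimulated samples and 5.46, 2.07 and 6.17 in the CpG + IFNα samples, with a log2 fold change of -8.2 (SE 0.20, adjusted p = 1.37e-25). Its mean was 6.23 with CpG and 5.08 with IFNα. Zfp36, which encodes the mRNA-decay factor tristetraprolin, fell from 732, 727 and 857 to 12, 13.8 and 14.4. Nr4a1, an orphan receptor gene used as a reporter of antigen receptor signals, fell from 782, 236 and 246 to 6.55, 9.31 and 10.8, and unstimulated replicate 1 was above the other two.

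The AP-1 genes Junb, Jund and Jun fell, with log2 fold changes of -3.77, -2.54 and -2.35, and Klf6 with -5.23. Egr3 and Egr1 fell, with log2 fold changes of -5.94 and -3.95. The 3 genes that rose were Gadd45b, a stress and NF-kB target (from 77.7 ± 6.03 to 655 ± 86.3), Myc and Atf3. Atf3 read 86.5, 10.7 and 15 without stimulation and 82.9, 84.2 and 80.7 with CpG + IFNα, so that its groups overlapped through unstimulated replicate 1. Its log2 fold change of 1.11 was 0.73 without unstimulated replicate 2 or without replicate 3, and was then not a DEG. Unstimulated levels of immediate-early genes summed to 14550, 10110 and 12410 normalized CPM and the CpG + IFNα levels to 2928, 2784 and 2670.

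MHC class II genes fell together. All 11 tested genes were lower, beside 25.6% of all genes tested, with log2 fold changes from -7.03 to -4.97 and a median of -5.78, and in none did the groups overlap, while 37.3% of all genes lay below in every sample. The class took 3.48%, 3.41% and 3.21% of all counts in the unstimulated samples and 0.0773%, 0.0751% and 0.0757% in the CpG + IFNα samples. The exact permutation p was 0.1, the smallest possible. Its mean share was 0.106% with CpG and 2.39% with IFNα.

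H2-Aa, the α chain of I-A (chr17:34282744-34287823), stood at 6233, 6310 and 5678 normalized CPM without stimulation and 114, 106 and 89.4 with CpG + IFNα (log2 fold change -5.88, SE 0.14, adjusted p = 1.22e-25). Cd74, the invariant chain that guides class II through the cell, fell from 15730, 14540 and 13580 to 453, 404 and 425. Ciita, the transactivator on which class II transcription depends, fell from 566, 495 and 594 to 10.9, 17.6 and 12.8 (log2 fold change -5.27). The peptide-exchange genes H2-DMa, H2-DMb1 and H2-Ob fell, with log2 fold changes of -6.39, -5.88 and -5.78, and the gene of the second isotype, H2-Eb1, with -5.92. H2 genes are close relatives, and reads may have been split between some of them. None of the 8 class II promoters that could be matched held the ISRE core, the NF-kB-like letters or CACGTG.

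Of 25 tested MHC class I and peptide-loading genes, 4 were higher and 1 lower, beside 20.3% and 25.6% of all genes tested, with a median log2 fold change of 0.01, which was -0.12 with upper-quartile scaling. B2m, the light chain of class I, read 4353, 4315 and 4689 normalized CPM without stimulation and 4408, 4395 and 4671 with CpG + IFNα, and H2-K1 read 2312 ± 209 and 2378 ± 73.97. Psme2 and Psme1, which encode the interferon-inducible PA28 activator of the proteasome, rose from 213 ± 31.8 to 1031 ± 16.8 and from 248 ± 7.57 to 567 ± 28.7. Erap1, the peptide-trimming enzyme, and Canx, a chaperone of class I folding, rose by log2 fold changes of 1.39 and 1.06, and H2-M3 fell (log2 fold change -1.67). Against CpG alone 15 of the 25 were higher and 0 lower (median 1.04, beside 2.95% and 2.01% of all genes), and against IFNα alone 3 were higher and 8 lower (median -0.92, beside 18.7% and 25.5%). Nlrc5, the class I transactivator, averaged 57.8 without stimulation, 18.7 with CpG, 159 with IFNα and 95.2 with CpG + IFNα.

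**Figure D4:**
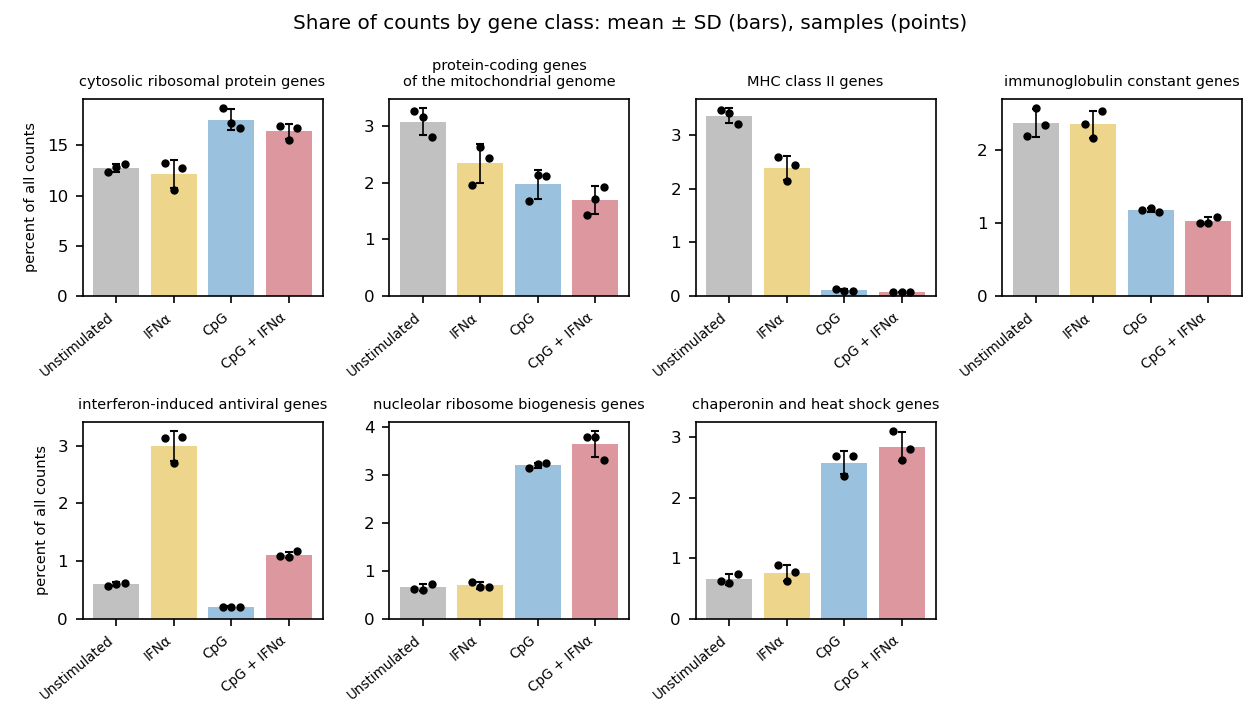
Percent of all counts that gene classes took in the 4 groups, with 1 panel for each class, bars at the mean with SD (n = 3) and 1 point for each sample. MHC class II genes lie at 3.21% to 3.48% in the unstimulated and 0.0751% to 0.0773% in the CpG + IFNα samples, and ribosome biogenesis genes at a mean of 0.650% and 3.64%.

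B cell identity genes fell. Of 32 tested genes, 27 were lower and 0 higher, beside 25.6% and 20.3% of all genes tested, and the median log2 fold change was -2.48. For all 32 every CpG + IFNα sample lay below every unstimulated sample, as for 37.3% of all genes. Fcer2a, which encodes CD23, the low-affinity IgE receptor and a marker of the sorting gate (chr8:3681737-3694175), fell from 1118, 1454 and 1109 to 10.4, 6.9 and 7.195 normalized CPM (log2 fold change -7.25, SE 0.20, adjusted p = 1.45e-24). Cr2, the gene of CD21, another gate marker, fell from 412 ± 57.1 to 14.02 ± 6.22. Cd79a, the signalling chain of the B cell receptor, fell from 651, 769 and 664 to 25.1, 17.6 and 27.8 (log2 fold change -4.92), and its partner Cd79b with -3.98.

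Among transcription factor genes of the B lineage, Ets1 fell from 1001 ± 111 to 72.7 ± 4.08, Spib from 492 ± 40.9 to 45.9 ± 7.82, and Ebf1 and Foxo1 by log2 fold changes of -2.11 and -1.55. Bach2, a repressor that holds B cells back from plasma cell fate, fell from 286 ± 20.6 to 74.1 ± 18.9 (log2 fold change -1.93, adjusted p = 6.16e-14). The surface gene Ms4a1, which encodes CD20, fell, with a log2 fold change of -2.55. Against CpG alone 0 of the 32 were higher and 5 lower (2.95% and 2.01% of all genes), and against IFNα alone 0 were higher and 23 lower (18.7% and 25.5%).

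Of 31 tested genes of the B cell receptor pathway, 22 were lower and 0 higher, beside 25.6% and 20.3% of all genes tested (median log2 fold change -1.67). Malt1, which helps to join the receptor to NF-kB, fell from 192 ± 43.5 to 19.7 ± 6.03. Syk, the kinase that binds the CD79 chains, fell, with a log2 fold change of -2.33, Btk with -2.05 and Plcg2 with -1.67, while Blnk, their adaptor, read 417 ± 16.6 and 384 ± 21.3 (-0.12). Of 17 inhibitory receptor and phosphatase genes, which restrain the receptor, 11 were lower and 0 higher (median -1.56), beside the same shares. Siglecg, an inhibitory lectin, fell from 390.4, 435 and 415 to 3.27, 8.28 and 9.77, and Ptpn6, the gene of the phosphatase SHP-1, from 1028 ± 135 to 134 ± 8.58. Cd22 fell, with a log2 fold change of -3.88 and Inpp5d, the gene of the lipid phosphatase SHIP-1, with -3.57.

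Genes that place B cells in the follicle or let them recirculate were lower in 17 of 20 cases and higher in 1, beside 25.6% and 20.3% of all genes tested (median log2 fold change -4.80). Klf2, a transcription factor for the resting, circulating state, fell from 2340, 1377 and 1534 to 13.1, 15.9 and 15.4 normalized CPM (log2 fold change -6.87, adjusted p = 3.09e-24). S1pr1, the egress receptor, fell from 283, 118 and 145 to 5.46, 9.31 and 4.62 (-4.73). Itgb7, the β chain of the gut-homing integrin, was at 146, 114 and 114 without stimulation and at 0.545, 1.03 and 1.03 with CpG + IFNα, at most 3 counts in any of the latter, so no fold is given.

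The chemokine receptor genes Cxcr4 and Cxcr5 fell, with log2 fold changes of -4.6 and -1.38, and Gpr183, a receptor for oxysterols that guides B cells to the follicle edge, with -4.98. Ccr7, the receptor that draws B cells to the T cell zone, read 1081, 649 and 769.5 and 1701, 1508 and 1469, with no overlap and a log2 fold change of 0.90 (adjusted p = 2.76e-07) that did not reach the fold limit, but did without unstimulated replicate 1 (1.15). Itgb1 was the 1 gene of the list that rose (1.34). Of these 20 genes, 1 was higher and 4 lower against CpG alone (2.95% and 2.01% of all genes), and 2 were higher and 15 lower against IFNα alone (18.7% and 25.5%).

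Of 22 tested costimulation and activation genes, 4 were higher and 9 lower (median log2 fold change -0.87), beside 20.3% and 25.6% of all genes tested. Il2ra, the gene of CD25, rose from 7.28, 5.35 and 1.76 to 55.1, 69.3 and 56.5 normalized CPM (log2 fold change 3.66), and Cd44, an adhesion receptor of activated lymphocytes, from 134 ± 23.5 to 711 ± 21.5 (2.41). Cd80 was at 0.651 ± 0.571 without stimulation, with no more than 3 counts in a library, and at 7.04 ± 1.78 with CpG + IFNα. Cd86, the other ligand of CD28, fell from 87.4, 58.8 and 62.6 to 34.9, 38.3 and 28.3 (log2 fold change -1.03), a call that was lost without unstimulated replicate 1 (-0.81) or CpG + IFNα replicate 3 (-0.90). It was higher than with CpG alone, where its mean was 5.32 (log2 difference 2.7, adjusted p = 1.33e-09). Icosl, the ligand of ICOS, fell from 133 ± 21.2 to 11.4 ± 4.36, Il4ra from 227 ± 22.3 to 31.7 ± 4.07 and Cd69 from 482 ± 57.5 to 213 ± 7.94. Cd40 read 132 ± 20.1 and 215 ± 24.4 (0.71).

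Genes associated with quiescence fell in 23 of 26 cases, and 0 of them were higher, beside 25.6% and 20.3% of all genes tested (median log2 fold change -3.10). Cdkn1b, which encodes the cyclin-dependent kinase inhibitor p27, fell from 444, 354 and 337 to 53.5, 56.9 and 57.05 normalized CPM (log2 fold change -2.76, SE 0.13, adjusted p = 1.5e-18). Btg1, an anti-proliferative gene, fell from 1307 ± 136 to 80.6 ± 6.67, Tsc22d3, the gene of the glucocorticoid-induced protein GILZ, from 779 ± 229 to 13.3 ± 3.34, and Txnip, an inhibitor of glucose uptake, from 491 ± 66.7 to 49.8 ± 4.601. Pdcd4, a translation inhibitor, fell, with a log2 fold change of -3.62, and was also lower than with CpG alone (-1.27, adjusted p = 6.87e-07). Slfn2, which is required for lymphocyte quiescence and is interferon-inducible, was the 1 gene of the list whose 3 CpG + IFNα samples lay above the unstimulated samples (236 ± 30.5 and 327 ± 28.2, log2 fold change 0.47).

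Of 20 tested genes of the G1 phase, 9 were higher and 6 lower (median log2 fold change 0.66), beside 20.3% and 25.6% of all genes tested. Ccnd2, the gene of cyclin D2, rose from 172, 204 and 247 to 1374, 1509 and 1250 normalized CPM (2.73, adjusted p = 2.05e-18), and was higher than with CpG alone, where it averaged 585 (log2 difference 1.24, adjusted p = 8.38e-10). Its kinase partners Cdk4 and Cdk6 rose by 2.0 and 2.12. Cdkn1a, which encodes the inhibitor p21, rose from 10.01, 2.14 and 13.2 to 205, 294 and 268 (4.85, adjusted p = 2.28e-17). E2f2 fell from 75.96 ± 9.57 to 3.65 ± 1.497, while E2f1, E2f4, E2f5 and E2f6 rose.

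Myc, the growth regulator, stood at 225, 143 and 168 normalized CPM without stimulation and 755, 646 and 725 with CpG + IFNα, with no overlap (log2 fold change 1.98, adjusted p = 2.73e-14). It averaged 568 with CpG and 38.04 with IFNα. Of 40 DNA replication genes, 20 were higher and 2 lower (median 1.05, beside 20.3% and 25.6% of all genes tested), among them Mcm3 (47.1 ± 10.1 to 194 ± 16.8), a subunit of the replicative helicase, and Pold2, a subunit of DNA polymerase δ (25.9 ± 1.403 to 156 ± 17.2). The 2 that fell were Pold1 (-1.37) and Slbp (-1.46).

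Of 24 tested targets of p53, 14 were higher and 4 lower, beside 20.3% and 25.6% of all genes tested (median log2 fold change 1.34). Bax, a pro-apoptotic gene, rose from 86.5, 71.7 and 94.4 to 501, 599.6 and 570.5 normalized CPM (log2 fold change 2.72), Phlda3, an inhibitor of Akt, from 2.85 ± 0.909 to 39.4 ± 7.198, and Ccng1 by a log2 fold change of 1.74. Rps27l, a ribosomal protein paralogue induced by p53, rose from 71.1 ± 4.95 to 759 ± 12.1 and was among the 12 higher genes with the smallest p. Mdm2, the ubiquitin ligase of p53, read 75.8 ± 11.6 and 106 ± 5.63 (0.48). The 4 that fell were Sesn1, Btg2, Trp53inp1 and Pmaip1, with log2 fold changes of -3.54, -3.22, -2.29 and -2.01.

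Nearly all ribosome biogenesis genes rose. Of 67 tested nucleolar genes, 66 were higher and 0 lower, beside 20.3% and 25.6% of all genes tested, and the median log2 fold change was 2.32. For all 67 every CpG + IFNα sample was above every unstimulated sample, as for 36.6% of all genes. The remaining gene, Rrp1, had a log2 fold change of 0.71 (adjusted p = 2.76e-06). The list's share of all counts was 0.618%, 0.603% and 0.728% in the unstimulated samples and 3.80%, 3.80% and 3.32% in the CpG + IFNα samples (exact permutation p = 0.1, the smallest possible), and it averaged 3.21% with CpG and 0.691% with IFNα. Against CpG alone 0 of the 67 were higher and 0 lower by the DEG rule (median 0.13, beside 2.95% and 2.01% of all genes), and against IFNα alone 63 were higher (median 2.2, beside 18.7%).

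Ncl, the gene of nucleolin (chr1:86344719-86359400), stood at 864, 813 and 1092 normalized CPM without stimulation and 8807, 9125 and 6430 with CpG + IFNα (log2 fold change 3.14, SE 0.15, adjusted p = 2.93e-18). Nop58 and Gar1, which belong to the small nucleolar ribonucleoproteins that modify rRNA, rose from 146 ± 18.1 to 1464 ± 192 and from 57.7 ± 13.2 to 458 ± 40.3. Rrp1b rose from 33.5 ± 5.45 to 400.5 ± 13.9 and had the largest log2 fold change of the list, 3.58.

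Of 37 translation initiation factor genes, 26 were higher and 0 lower, beside 20.3% and 25.6% of all genes tested (median log2 fold change 1.43), including Eif4e (26.2 ± 8.93 to 164 ± 16.5) and Eif4a1, the gene of its partner helicase (295 ± 35.5 to 1968 ± 248). Of 23 aminoacyl-tRNA synthetase genes and partners, 20 were higher and 0 lower (median 1.71), with Lars at 2.51 and Eef1e1, a subunit of the synthetase complex, at 3.51. Cytosolic ribosomal protein genes were mostly not called, with 7 of 81 higher and 1 lower (median 0.43), fewer in both directions than the 20.3% and 25.6% of all genes. In 59 every CpG + IFNα sample was above the unstimulated samples and in 7 below, beside 36.6% and 37.3% of all genes. Their share of all counts was 12.8% ± 0.418 without stimulation and 16.4% ± 0.77 with CpG + IFNα (SD, n = 3 each, exact permutation p = 0.1). Rpl7l1 and Rps2 rose by log2 fold changes of 1.98 and 1.35, and Rps27 fell (log2 fold change -1.33).

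Of 23 chaperonin and heat shock genes, 20 were higher and 0 lower, beside 20.3% and 25.6% of all genes tested (median log2 fold change 1.95), and their share of all counts was 0.646% ± 0.0851 without stimulation and 2.84% ± 0.24 with CpG + IFNα (SD, n = 3 each). Hspd1, described above for its promoter, rose from 150.1, 122 and 173 to 2202, 1852 and 1561 normalized CPM (3.65, adjusted p = 2.37e-19), its co-chaperonin Hspe1 by 2.5, and Cct7 and Cct6a of the cytosolic ring chaperonin by 2.66 and 2.64. Of 33 proteasome subunit genes, 28 were higher and 0 lower (median 1.63), and all 33 lay above the unstimulated samples in every CpG + IFNα sample, as did 36.6% of all genes. Psma5 rose most, by 2.28.

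**Figure D5:**
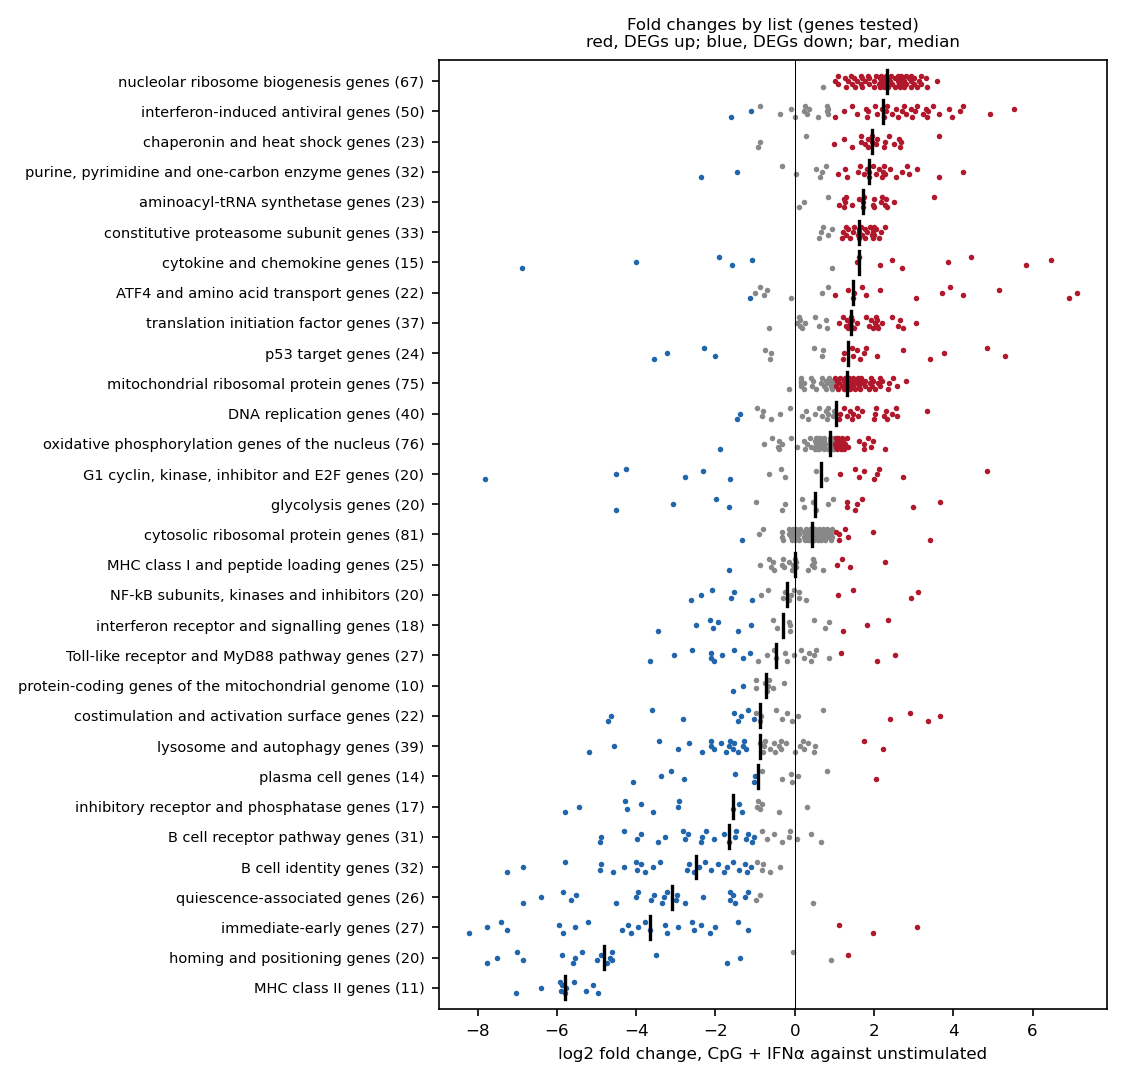
Log2 fold changes of CpG + IFNα against unstimulated cells for the tested members of gene lists, 1 row for each list, 1 point for each gene and a bar at the median. MHC class II genes (median -5.78) and ribosome biogenesis genes (median 2.32) form separate bands on either side of 0, and interferon-induced antiviral genes spread from -1.6 (Ly6e) to 5.53 (Ifitm3).

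Metabolic genes were described by pathway. Of 32 tested enzymes of purine, pyrimidine and one-carbon metabolism, 24 were higher and 2 lower, beside 20.3% and 25.6% of all genes tested (median log2 fold change 1.87). Tyms, the thymidylate synthase gene, rose from 3.397 ± 1.16 to 67.7 ± 4.45 normalized CPM, Mthfd2, the mitochondrial folate enzyme, from 23.4 ± 5.03 to 295 ± 31.7 and Ctps, a CTP synthase gene, from 18.1 ± 1.495 to 152 ± 6.96. The 2 that fell were Ctps2 (-2.35) and Tk1 (-1.47). Of 22 ATF4 target and amino acid transport genes, 14 were higher and 1 lower (median 1.47), led among genes with enough counts in both groups by Slc7a5, the large neutral amino acid transporter (13.9 ± 5.95 to 186 ± 11.4). Asns, the asparagine synthetase gene, was at 1.82, 0 and 1.76 without stimulation, with no more than 3 counts in a library, and at 59.5, 42.8 and 42.1 with CpG + IFNα.

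Of 20 tested glycolysis genes, 7 were higher and 4 lower (median log2 fold change 0.51), beside 20.3% and 25.6% of all genes tested. Hk2, an inducible hexokinase gene, rose from 12.7, 9.63 and 12.3 to 166, 122 and 158 normalized CPM while Hk1 fell from 40.95, 33.2 and 32.6 to 2.73, 3.79 and 6.17. Ldha rose by 1.69, and Slc16a1, the lactate transporter MCT1, by 2.98. Lysosome and autophagy genes were lower in 19 of 39 cases and higher in 2 (median -0.89, beside 25.6% lower and 20.3% higher over all genes), with Tfeb, the master regulator of lysosome genes, falling from 102 ± 21.9 to 9.497 ± 1.13, and Psap and Ctsh by log2 fold changes of -2.95 and -2.11. Grn, the progranulin gene, rose by 2.23.

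Mitochondrial ribosomal protein genes were higher in 53 of 75 cases and lower in 0 (median log2 fold change 1.33, beside 20.3% higher and 25.6% lower over all genes), and nuclear genes of oxidative phosphorylation were higher in 25 of 76 and lower in 1 (median 0.88). Of the 10 tested protein-coding genes of the mitochondrial genome, 0 were higher and 2 lower (median -0.73), a share of lower genes near that of all genes tested, and 9 lay below the unstimulated samples in every CpG + IFNα sample, as did 37.3% of all genes. The share of counts of its 13 protein-coding genes was 3.27%, 3.17% and 2.82% in the unstimulated samples and 1.44%, 1.71% and 1.92% in the CpG + IFNα samples (exact permutation p = 0.1, the smallest possible). With its rRNA and tRNA genes included, 14 genes of this genome were tested, 0 were higher and 3 lower, and its 24 genes in the table took 7.70%, 7.01% and 6.06% of the counts without stimulation and 2.99%, 3.52% and 3.34% with CpG + IFNα (exact permutation p = 0.1). The third that fell was the rRNA gene mt-Rnr2, from 37500, 33510 and 26870 to 12230, 13750 and 11330 normalized CPM (log2 fold change -1.39), beside mt-Cytb (log2 fold change -1.32) and mt-Co1. The cytochrome oxidase gene mt-Co1 fell (log2 fold change -1.56), and Cyc1, the nuclear gene of cytochrome c1, rose (log2 fold change 1.84).

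Of 14 tested plasma cell genes, 1 was higher and 7 lower at 12 h, beside 20.3% and 25.6% of all genes tested (median log2 fold change -0.92). Slamf7, a surface protein of plasma cells, was the 1 that rose, from 41.9, 35.3 and 37.1 to 160.4, 179 and 135 normalized CPM (log2 fold change 2.05), and it averaged 65.04 with CpG and 96.1 with IFNα. Sdc1, the gene of the plasma cell marker CD138, was at 20.02, 12.8 and 23.8 without stimulation and 1.64, 0.69 and 1.03 with CpG + IFNα, at most 3 counts in a library of the latter. Pou2af1, a co-activator needed for germinal centres, fell from 418 ± 41.4 to 59.8 ± 1.19, and Mzb1, a chaperone of immunoglobulin assembly, read 266 ± 48.3 and 247 ± 3.48 (-0.10).

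Immunoglobulin constant genes as a class took 2.38% ± 0.191 of all counts without stimulation and 1.03% ± 0.0462 with CpG + IFNα (SD, n = 3 each, exact permutation p = 0.1). Igkc fell, with a log2 fold change of -1.25 and Ighd with -1.77, while Ighg2b and Ighg2c rose from 23.7 ± 3.91 to 254 ± 39.5 and from 1.78 ± 1.76 to 30.1 ± 7.37 normalized CPM. The Ighg genes are close copies, so the assignment of reads between them is uncertain.

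The genes with the smallest p or the largest fold change also included genes not named above. Ybx3, a cold-shock RNA-binding protein, rose from 103 ± 4.96 to 1196 ± 66.01 normalized CPM, and C1qbp, a mitochondrial matrix protein, from 119 ± 9.99 to 1042 ± 99.4. Among the lower genes, Rgs2, a regulator of G protein signalling, fell from 916, 572 and 686 to 2.73, 4.83 and 3.597. Hvcn1, the proton channel of B cells, fell from 912 ± 68.8 to 18.8 ± 5.89, and Vpreb3, a surrogate light chain relative, from 187 ± 10.6 to 1.15 ± 1.23. Rgs2 was already counted among the homing genes and Vpreb3 among the transitional B cell markers.

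The genes with the smallest p against CpG alone, among DEGs of the comparison with unstimulated cells, are given with their means in all 4 groups. The 10 higher genes were Cxcl10 and 9 genes of the antiviral list. Isg20, an exonuclease gene, averaged 48.4 normalized CPM without stimulation, 13.4 with CpG, 649.5 with IFNα and 498 with CpG + IFNα, and Zbp1, a sensor of nucleic acids, averaged 36.4, 6.13, 536 and 298 in the same order. The 10 lower genes held Fcrla, Bank1 and Pou2af1 of the B cell identity and plasma cell lists beside genes outside the lists. Klhl6, a ubiquitin ligase adaptor of mature B cells, read 95.5, 124 and 122.7 without stimulation and 10.4, 12.4 and 15.4 with CpG + IFNα, and averaged 64.8 with CpG and 137 with IFNα (log2 difference -2.34 from CpG alone, adjusted p = 1.43e-12). Lbh, a transcription cofactor, averaged 572, 115, 262 and 31.9 in the same order, and Pim2, a survival kinase gene, 48.7, 461, 52.9 and 223. In Klhl6 and Lbh the CpG + IFNα mean was below that of every other group, and in Pim2 it lay between unstimulated cells and CpG alone.

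Against IFNα alone the leading genes of the comparison were those of the growth and NF-kB lists (Nfkbiz, Rrp1b, Myc and Eef1e1), with Il6, Cd44 and Srm, the spermidine synthase gene. Srm averaged 71.1 normalized CPM without stimulation, 875 with CpG, 58.9 with IFNα and 918 with CpG + IFNα. Apoe, the apolipoprotein gene, read 193, 217 and 223 without stimulation and 6, 8.62 and 5.65 with CpG + IFNα and averaged 6.26 with CpG and 1144 with IFNα (log2 difference -7.34 from IFNα alone, adjusted p = 1.16e-26). Fcmr, the receptor of IgM, averaged 1604, 60.5, 2330 and 50.97 in that order.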

How the data were processed

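RNA-seq of the 3' ends of transcripts (BRB-seq) had been run on 12 samples in 4 groups of 3, taken from the sample labels. Per the study's methods and the submitters' processing notes, the authors trimmed the reads with Trim Galore 0.6.7, aligned them to GRCm38 with HISAT2 2.2.1, assigned them to genes with featureCounts 2.0.1 and removed duplicate molecules with UMI-tools 1.1.2, and the deposited values are whole counts per gene, not normalized. Of 22561 genes, the 9431 that passed edgeR's filterByExpr were fitted over the 12 samples with edgeR 4.0.16 (TMM scaling, quasi-likelihood test, R 4.3.3). Residual degrees of freedom were 8. P-values were adjusted by the Benjamini-Hochberg method over all genes tested. A gene was called where its adjusted p was below 0.1 and it changed by more than 1 on the log2 scale. With 922450 to 2923865 counts per sample, genes at a few counts carry wide error, and no fold is given where every library of the lower group held at most 3 counts. The fitting was tested on simulated data in which a small set of genes changed, equally often in both directions. Changes as many and as unequal as those found here were not simulated. Shares of counts were compared by exact two-sided permutation over samples.

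The gene lists and the genes named were chosen with earlier results of these data known. Genes named are members of the lists, the 12 in each direction with the smallest p and with the largest fold change (mean of at least 50 normalized CPM in the higher group) among protein-coding DEGs without overlap, the 10 most abundant genes per group, and the 10 in each direction with the smallest p against each single stimulation. Alternatives were other scalings, filters, thresholds and tools (DESeq2 1.42.0), a replicate block, thinned counts and leaving out each sample. Gene positions were taken from GENCODE M21 annotation, and promoters from RefSeq. Some genes are not reported here.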

Additional observations from a re-analysis of the deposited data

How the results depend on the processing

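No named gene that was called changed direction under the other scalings, filters and tools, the replicate block, thinned counts or samples left out, and the median of each list kept its sign except that of MHC class I genes, which was 0.01 as reported and ran from -0.12 to 0.13. Under these settings the calls of 7 named genes changed at least once (Atf3, Canx, Ccr7, Cd86, Gbp3, Nfkb1 and Relb), whose log2 fold changes as reported were 0.90 to 1.12 in size. With the fold limit at 2, 139 of the 184 named genes called would keep their call, and the other thresholds were not run for single genes. With a log2 fold change beyond 2 in place of 1, 604 genes were higher and 1222 lower than in unstimulated cells, 150 and 15 against CpG alone, and 536 and 1162 against IFNα alone. A test against a change of 2-fold (glmTreat) left 177 higher and 18 lower against CpG alone, so that higher genes made up 90.8% of the calls in place of 59.4%. Leaving out each CpG + IFNα or unstimulated sample in turn gave 1940 to 2068 higher and 2460 to 2579 lower genes than in unstimulated cells. Upper-quartile scaling moved the median of all genes tested to -0.14, and the list medians with it, to -0.43 for interferon signalling genes, -0.61 for Toll-like receptor pathway genes, -5.92 for MHC class II genes, -0.12 for MHC class I genes, -1.80 for B cell receptor pathway genes, -1.001 for costimulation genes, -1.05 for plasma cell genes, 0.30 for cytosolic ribosomal protein genes, 1.19 for mitochondrial ribosomal protein genes, 0.75 for oxidative phosphorylation genes, 1.30 for initiation factor genes, 1.58 for tRNA synthetase genes, 1.81 for chaperonin genes, 1.49 for proteasome genes, 1.74 for nucleotide enzyme genes, 1.34 for ATF4 genes, 0.37 for glycolysis genes and -1.02 for lysosome genes. Without the filter on low counts, the medians were -0.040 for interferon signalling genes, -3.12 for immediate-early genes, -5.66 for MHC class II genes, 0.13 for MHC class I genes, -1.54 for B cell receptor pathway genes, -4.57 for homing genes, -0.74 for costimulation genes, -2.87 for quiescence genes, 0.54 for cytosolic ribosomal protein genes, 1.45 for mitochondrial ribosomal protein genes, 0.9997 for oxidative phosphorylation genes, 1.55 for initiation factor genes, 1.83 for tRNA synthetase genes, 1.75 for proteasome genes, 1.57 for ATF4 genes and 0.66 for glycolysis genes. With a stricter filter they were -0.94 for costimulation genes, 0.92 for DNA replication genes, 1.41 for ATF4 genes and 0.62 for glycolysis genes. With counts thinned to the smallest total they were -0.089 for MHC class I genes, -4.96 for homing genes, -0.97 for costimulation genes, 0.42 for glycolysis genes and -1.24 for lysosome genes. The ATF4 median was 1.44 with total counts alone and also when only the groups compared were fitted. Leaving out each sample in turn, the medians that moved by more than the spread between samples ranged from 1.29 to 2.38 for cytokine genes, -3.79 to -3.32 for immediate-early genes, -5.85 to -5.60 for MHC class II genes, -1.71 to -1.57 for B cell receptor pathway genes, -4.98 to -4.69 for homing genes, -0.88 to -0.70 for costimulation genes, 1.17 to 1.52 for p53 target genes, 1.01 to 1.26 for DNA replication genes, 1.36 to 1.54 for initiation factor genes, 1.85 to 1.997 for nucleotide enzyme genes, 1.42 to 1.55 for ATF4 genes and 0.47 to 0.60 for glycolysis genes. The cause of these shifts was not tested.

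With only the 250 bases before the start, the ISRE core was in 3.50% of the promoters of tested genes and 3.46% of all promoters, the NF-kB-like letters in 1.77% of all promoters, and CACGTG in 12.01% of the promoters of higher genes, 10.7% of lower genes, 10.8% of tested genes and 6.86% of all promoters.

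Whether the shared replicate numbers pair the samples was checked by correlating the deviations of same-numbered samples from their group means. Between the unstimulated and CpG + IFNα samples the correlations for replicates 1, 2 and 3 were 0.008, -0.06 and 0.03, and 0 of the 3 pairs matched best by number. They were 0.15, 0.15 and 0.06 between CpG and CpG + IFNα and 0.18, 0.20 and 0.07 between IFNα and CpG + IFNα, so replicate 3 stayed below 0.1 in each, and the samples were taken to share only a number. A replicate block gave 1918 higher and 2428 lower genes than in unstimulated cells, 277 and 195 against CpG alone, and 1764 and 2411 against IFNα alone, within 1.5 times the counts without it.

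The unstimulated libraries held 922450 to 1103064 counts and the CpG + IFNα libraries 1884673 to 2923865, so genes near 0 without stimulation were measured less precisely there.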
